A study of Mus musculus with 4 samples.

Results

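Lungs of mice lacking p16 (p16-/-) were compared with lungs of mice with intact p16 (p16+/+) after cigarette smoke (CS) exposure, over all 84 target genes of an insulin signaling PCR array. The 8 lungs compared, 4 of each genotype, are those of the 15 lungs in the series whose labels give CS. The other 7 lungs came from mice kept in room air (RA). Both CS groups were 8 weeks old at the start by the labels and received CS for 16 weeks, whereas the labels of the RA groups give an age of 24 weeks. All mice were female by the study's methods. p16+/+ mice were the albino B6(Cg)-Tyrc-2J/J strain of The Jackson Laboratory. p16-/- mice carried the p16Luc allele, a luciferase reporter placed under the p16 promoter that disrupts p16 itself, on a B6 background with the same albino Tyr allele, and came from the NCI mouse repository. Source colony and p16 loss therefore cannot be told apart. RNA was taken from whole lung lobes, so that fewer cells of a type and less RNA per cell cannot be told apart either. The array holds no marker of lung epithelium, endothelium or fibroblasts and lacks Cdkn2a, which encodes p16, so neither the tissue label nor the deletion could be checked in these values.

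Insulin and the insulin-like growth factors bind receptor tyrosine kinases that phosphorylate the insulin receptor substrates. These recruit phosphatidylinositol 3-kinase, which activates Pdpk1, Akt and mTOR, while the adaptors Shc1, Grb2 and Sos1 feed the Ras, Raf and MAP kinase chain. p16 is an inhibitor of cyclin-dependent kinases that many senescent cells express.

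The array was read as threshold cycles (CT). The CT is the cycle of the PCR by which product is first detected, and 1 cycle less stands for 1 log2 unit more cDNA. The level of a gene is given as -ΔCT, the mean CT of 5 reference genes minus the CT of the gene. The reference genes were Gapdh, Actb, Gusb, B2m and Hsp90ab1. A change is the p16-/- CS mean minus the p16+/+ CS mean of -ΔCT on the log2 scale. The CTs of Gusb and Hsp90ab1 were deposited 1 place to the left of the other genes. Once moved by 1 place, all 89 genes matched the deposited mean of each group within 0.001 cycles, whereas 87 did as deposited. The move left p16+/+ RA lung 1 without these reference CTs, and it was left out of the fit, which held 14 lungs. The median CT of the targets ranged from 28.2 to 31.7 cycles in p16+/+ CS lungs and from 26.5 to 27.8 in p16-/- CS lungs.

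A pair of CS lungs stood apart, p16-/- CS lung 4 in level and p16+/+ CS lung 3 in raw CT. p16-/- CS lung 4 had the highest level of its group in 72 of 84 targets, with a median -ΔCT of -0.45 against -3.16, -2.12 and -3.08 in lungs 1 to 3, and its mean reference CT was the latest of its group (26.3), though its B2m was not. p16+/+ CS lung 3 was late throughout, with a mean reference CT of 27.3 and 60 targets over 30 cycles. Its median -ΔCT of -4.41 lay within its group, against -4.33, -3.18 and -4.87 in lungs 1, 2 and 4. In p16+/+ CS, lung 2 was the highest lung in 61 targets.

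Against the mean of all 5 reference genes, 31 of the 84 targets were higher in p16-/- CS than in p16+/+ CS lungs and 0 were lower, at an adjusted p under 0.05 from limma. These are 36.9% and 0% of the genes tested. Measured against Gapdh alone, 19 genes were lower and 0 higher. Which way the targets shifted thus rests on how far Gapdh sets the reference. Leaving out Actb, B2m, Gusb or Hsp90ab1 instead gave 32, 27, 31 and 26 higher genes and 1, 1, 1 and 2 lower. The called changes ran from 1.99 to 4.78 on the log2 scale (3.97- to 27.4-fold), and the median change over all targets was 1.46, with a median standard error (SE) of 0.80. At an unadjusted p under 0.05 from limma, 37 genes were higher and 2 lower. The methods' t-test on -ΔCT called 25 higher and 1 lower after adjustment, and on the linear scale 0 in either direction. The exact permutation test called 0 after adjustment, since the smallest two-sided p of 4 lungs against 4 is 0.0286, which 33 genes reached and which adjusts to 0.0728.

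The higher genes were late targets in p16+/+ CS lungs. Their median CT was 30.7 cycles in p16+/+ CS and 26.8 in p16-/- CS lungs, against 28.4 and 27.4 for the 53 genes that were not called. Of the 31, 24 had a mean CT over 30 cycles in p16+/+ CS and 0 in p16-/- CS. With CTs limited to 30 cycles, 20 genes were higher and 1 lower, and Npy, Cfd, Ppp1ca, Pdpk1, Pparg, Igf2, Igfbp1, Slc2a1 and G6pc2 were among those no longer called. This limit sets every later CT to 30, so the change of a gene late in p16+/+ CS lungs shrinks by construction. A call lost in this way thus cannot tell whether the change is present. On raw CT, 46 genes were higher and 0 lower, with a median change of 2.09. In 30 genes every p16-/- CS lung lay above every p16+/+ CS lung (35.7%), and in 3 every one lay below (3.57%).

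Because most targets shifted together, each change was also taken relative to the median of the 84 targets in the same lung. This step sets the median target of each lung to 0, so a shift shared by most targets is taken out. A lower call after it means lower relative to the other targets. On that scale 16 of the 31 calls held and 16 other genes were lower, with a median change of -0.53. The 14 of these 16 that are described here are Irs1, Grb10, Nck1, Dok2, Frs2, Ppp1ca, Pdpk1, Prkci, Cebpb, Pklr, Pck2, Acaca, Cfd and Npy. With Gapdh alone none of them passed the test, and their changes lay between -0.03 (Cebpb) and 1.05 (Grb10). Leaving out p16-/- CS lung 4 gave 29 higher and 4 lower genes and leaving out p16+/+ CS lung 3 gave 28 and 0. Without both, 26 were higher and 1 was lower.

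**Figure D1:**
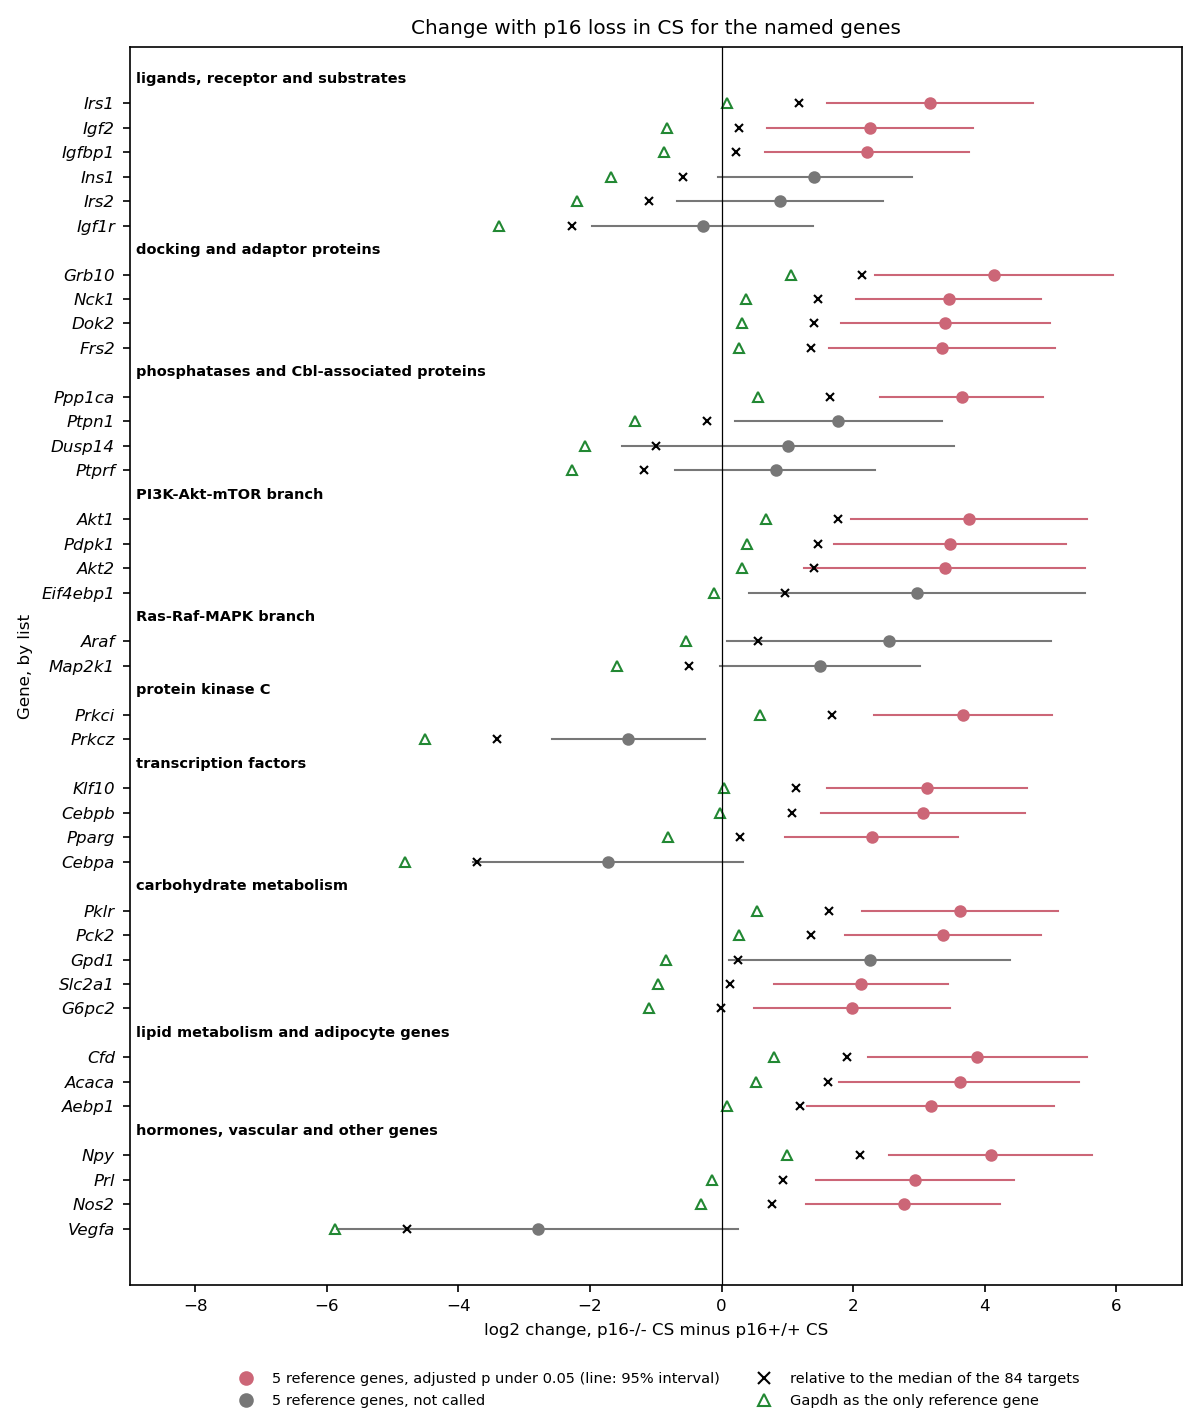
The log2 change from p16+/+ CS to p16-/- CS lungs (horizontal axis) is drawn for 38 genes chosen by the naming rule, grouped by role (vertical axis), with circles and 95% intervals for the mean of the 5 reference genes, crosses for the median of the 84 targets and triangles for Gapdh alone. Every circle of a called gene lies right of 0, and with Gapdh alone the highest triangle is that of Grb10 at 1.05.

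Of the 7 genes for ligands, receptor and substrates, 3 were higher (42.9%, against 36.9% of all targets) and 0 lower. Their median change was 1.41, or -0.58 relative to the median of the targets and -1.68 with Gapdh alone. Irs1, the docking protein that both the insulin and the IGF1 receptor phosphorylate, was at -4.82, -3.31, -4.82 and -4.99 in p16+/+ CS lungs 1 to 4 and at -1.66, -0.76, -3.03 and 0.19 in p16-/- CS lungs 1 to 4. The groups did not overlap, though p16+/+ CS lung 2 and p16-/- CS lung 3 were 0.29 cycles apart. Irs1 rose by 3.17 (SE 0.74, adjusted p = 0.0036 from limma), a 9.02-fold change. Igf2, a growth factor ligand, was at -4.77, -4.06, -5.45 and -4.85 in p16+/+ CS and at -4.07, -2.72, -3.08 and -0.22 in p16-/- CS lungs. Its groups met at p16+/+ CS lung 2 and p16-/- CS lung 1. Igf2 had a change of 2.26 (adjusted p = 0.023 from limma), which was 1.49 without p16-/- CS lung 4, was not called without p16+/+ CS lung 3 and fell to 0.26 relative to the median of the targets. Igfbp1, a binding protein of the growth factors, changed by 2.21 (adjusted p = 0.023 from limma), and lost the call without any one of p16+/+ CS lung 1, p16+/+ CS lung 3 or p16-/- CS lung 4. The other members described did not pass the test. Ins1, which encodes insulin in the pancreas, had a change of 1.41, and Irs2, the second substrate, one of 0.89. Igf1r, the receptor of the growth factors, had a change of -0.29 (95% interval -1.97 to 1.39), which was -1.14 without p16-/- CS lung 4 and 0.30 without p16-/- CS lung 1. Ins1 was called higher without p16-/- CS lung 3 (1.85).

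Of the 11 docking and adaptor genes, 4 were higher (36.4%, against 36.9% of all targets) and 0 lower. These 4 were also higher relative to the median of the targets. The list had a median change of 1.59, which was -0.40 on that scale and -1.50 with Gapdh alone. Grb10, an adaptor that binds the insulin receptor and dampens its signal, was at -7.38, -5.16, -4.98 and -6.62 in p16+/+ CS and at -2.17, -1.66, -3.56 and -0.18 in p16-/- CS lungs. All 4 p16-/- CS lungs lay above all 4 p16+/+ CS lungs, and the nearest values were 1.42 cycles apart. Grb10 rose by 4.14 (SE 0.85, adjusted p = 0.0019 from limma), or 17.6-fold, and by 3.57 without p16-/- CS lung 4. Nck1, an adaptor that links receptors to the actin skeleton, was at -6.37, -4.51, -5.50 and -5.49 in p16+/+ CS and at -2.14, -2.48, -3.02 and -0.42 in p16-/- CS lungs. The groups were again apart, with p16+/+ CS lung 2 the highest of its group and p16-/- CS lung 3 the lowest of its own. Nck1 rose by 3.46 (SE 0.66, adjusted p = 0.0013 from limma). Dok2, a docking protein that restrains Ras in blood cells, rose by 3.40 (adjusted p = 0.0029 from limma), and Frs2, a docking protein of the fibroblast growth factor receptors, by 3.35 (adjusted p = 0.0036 from limma).

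Of the 7 phosphatase and Cbl-associated genes, 1 was higher (14.3%, against 36.9% of all targets) and 0 were lower. Across these genes the median change was 0.82 (-1.18 relative to the median of the targets and -2.27 with Gapdh alone). Of the 7, 4 lay in columns 1 to 8 of the plate, which held 30 of the 31 higher genes. The higher gene was Ppp1ca, the catalytic subunit of protein phosphatase 1, at -7.64, -5.61, -6.53 and -6.46 in p16+/+ CS and at -2.75, -3.28, -3.45 and -2.17 in p16-/- CS lungs. The p16-/- CS lungs lay close together, the lowest 2.15 cycles above the highest p16+/+ CS lung. Ppp1ca rose by 3.65 (SE 0.58, adjusted p = 0.00058 from limma), but lost the call with CTs limited to 30 cycles (1.68). Ptpn1, which dephosphorylates the insulin receptor, had a change of 1.77 (adjusted p = 0.072 from limma), Dusp14, a phosphatase of MAP kinases, one of 1.01, and Ptprf, a receptor phosphatase, one of 0.82. None of these 3 passed the test, but Ptpn1 was called without p16+/+ CS lung 2 (2.12) or p16-/- CS lung 3 (2.25).

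Of the 13 genes of the PI3K, Akt and mTOR branch, 4 were higher (30.8%, against 36.9% of all targets) and 0 lower. The branch had a median change of 1.68 (-0.32 relative to the median of the targets and -1.41 with Gapdh alone). Of the 13, 6 lay in columns 1 to 8 of the plate, which held 30 of the 31 higher genes. Akt1, the kinase through which most of the growth signal passes, was at -6.54, -4.22, -6.18 and -7.31 in p16+/+ CS and at -1.61, -1.83, -3.36 and -2.39 in p16-/- CS lungs. The groups did not overlap, and the nearest lungs were p16+/+ CS lung 2 and p16-/- CS lung 3. Akt1 rose by 3.76 (SE 0.84, adjusted p = 0.0030 from limma), or 13.6-fold, and by 3.79 without p16-/- CS lung 4. Relative to the median of the targets its change was 1.77 and no longer passed the test (adjusted p = 0.065 from limma). Pdpk1, the kinase that activates Akt, was at -7.34, -5.23, -7.38 and -6.21 in p16+/+ CS and at -3.73, -2.24, -4.76 and -1.56 in p16-/- CS lungs. Its nearest lungs lay 0.46 cycles apart without overlapping. Pdpk1 rose by 3.47 (SE 0.83, adjusted p = 0.0036 from limma), but lost the call with CTs limited to 30 cycles (1.52). Akt2, the isoform tied to glucose uptake, rose by 3.40 (adjusted p = 0.012 from limma), but p16+/+ CS lung 2 (-2.63) lay above p16-/- CS lung 3 (-3.09), and the call was lost without both lungs that stood apart. Mtor, the kinase that couples growth signals to translation, was the fourth higher gene and is named after its values were seen; it had a change of 2.10, which was 0.11 relative to the median of the targets. Eif4ebp1, the translation repressor that mTOR inactivates, had a change of 2.97 with an SE of 1.20 and did not pass the test (adjusted p = 0.063 from limma). It was called without p16+/+ CS lung 2 (3.52) or p16-/- CS lung 1 (4.34).

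Of the 10 genes of the Ras, Raf and MAP kinase branch, 1 was higher and 0 were lower, against 36.9% higher among all targets. The branch had a median change of 1.17 (-0.82 relative to the median of the targets and -1.92 with Gapdh alone). Of the 10, 5 lay in columns 1 to 8 of the plate, which held 30 of the 31 higher genes. With the mean of each plate column removed in each lung, the median change of the branch was 1.73. Araf, a kinase at the head of the chain, had a change of 2.55 (SE 1.16), and Map2k1, a kinase that follows it, one of 1.50 (SE 0.71). Neither passed the test, and the groups of lungs overlapped for both. Araf was called without p16+/+ CS lung 2 (3.37) and Map2k1 without p16-/- CS lung 1 (1.97). Rras, a Ras-related GTPase described after its values were seen, was at -0.94, -1.15, -1.15 and -1.10 in p16+/+ CS and at -2.64, -1.40, -2.50 and -1.27 in p16-/- CS lungs. It was one of the 3 genes whose p16-/- CS lungs all lay below the p16+/+ CS lungs, but its change of -0.87 was not called (adjusted p = 0.20 from limma).

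Among the 3 protein kinase C genes, 2 were higher (66.7%, against 36.9% of all targets) and 0 lower. Prkci, an atypical isoform that acts below PI3K, was at -5.44, -4.17, -4.90 and -5.18 in p16+/+ CS and at -1.16, -0.83, -2.63 and -0.39 in p16-/- CS lungs. The groups were 1.54 cycles apart at their nearest. Prkci rose by 3.67 (SE 0.64, adjusted p = 0.00075 from limma), or 12.7-fold, and by 1.68 relative to the median of the targets. Prkcz, the other atypical isoform, had the opposite sign, with -6.03, -5.80, -6.21 and -6.75 in p16+/+ CS and -7.64, -7.82, -7.91 and -7.08 in p16-/- CS lungs. All p16-/- CS lungs lay below all p16+/+ CS lungs. The change of -1.42 (SE 0.55) fell just outside the threshold (adjusted p = 0.053 from limma). It was called lower without p16-/- CS lung 4, without p16+/+ CS lung 4 and relative to the median of the targets (-3.41), whereas with Gapdh left out of the reference it was -0.65. Its mean CT was 31.6 cycles in p16+/+ CS and 32.4 in p16-/- CS lungs.

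Of the 7 transcription factors, 3 were higher (42.9%, against 36.9% of all targets) and 0 lower. Together they had a median change of 1.14 (-0.85 relative to the median of the targets and -1.95 with Gapdh alone). Pparg, the nuclear receptor that drives fat cell differentiation and lipid storage, was at -6.29, -5.87, -7.09 and -6.66 in p16+/+ CS and at -5.06, -4.24, -4.81 and -2.69 in p16-/- CS lungs. The groups did not overlap, and p16-/- CS lung 4 stood well above the other lungs of its group. Pparg rose by 2.28 (SE 0.62, adjusted p = 0.0080 from limma), or 4.85-fold, and by 1.78 without that lung. Its change was 0.39 with CTs limited to 30 cycles, where it lost the call, and it was 0.28 relative to the median of the targets and -0.81 with Gapdh alone. Klf10, a zinc finger factor induced by TGFβ, rose by 3.13 (adjusted p = 0.0034 from limma), and Cebpb, a factor of acute and inflammatory responses, by 3.06 (adjusted p = 0.0036 from limma). Cebpa, a related factor of differentiated cells, had a change of -1.72 (adjusted p = 0.16 from limma) with overlapping groups, and was called lower without p16-/- CS lung 4 (-2.60).

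**Figure D2:**
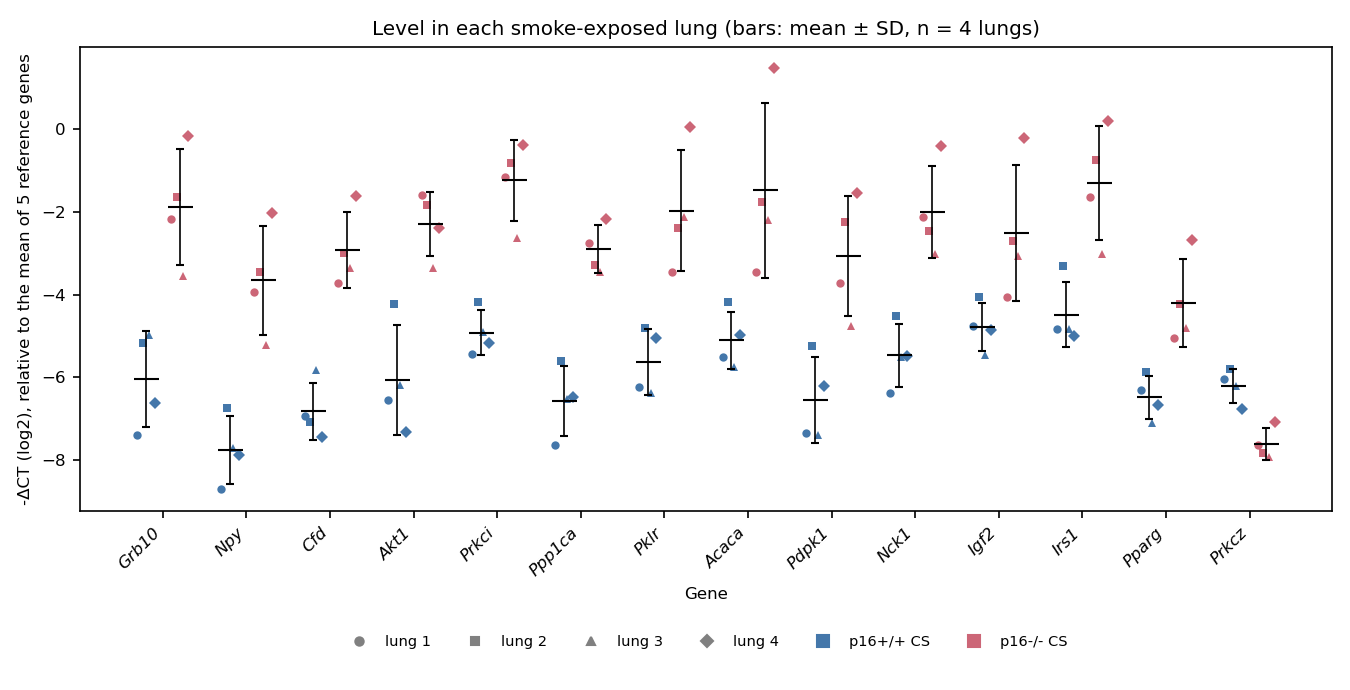
The level (-ΔCT, log2, against the mean of 5 reference genes) is drawn for 14 genes in each of the 4 p16+/+ CS (blue) and 4 p16-/- CS lungs (red), with a symbol for each lung and the mean ± SD as black bars. The groups overlap for Igf2 alone among these, and Prkcz is the gene of the set in which p16-/- CS lungs are the lower group.

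Of the 9 genes of carbohydrate metabolism, 5 were higher (55.6%, against 36.9% of all targets) and 0 lower. They had a median change of 2.12, which was 0.13 relative to the median of the targets and -0.97 with Gapdh alone. Pklr, the pyruvate kinase of liver and red cells, was at -6.23, -4.81, -6.37 and -5.06 in p16+/+ CS and at -3.46, -2.40, -2.12 and 0.04 in p16-/- CS lungs. The groups did not overlap, with p16-/- CS lung 4 the highest and p16-/- CS lung 1 the nearest to p16+/+ CS. Pklr rose by 3.63 (SE 0.70, adjusted p = 0.0013 from limma), and by 2.96 without p16-/- CS lung 4. Pck2, the mitochondrial enzyme of gluconeogenesis that makes phosphoenolpyruvate, rose by 3.36 (adjusted p = 0.0019 from limma). Slc2a1, the basal glucose transporter, rose by 2.12 (adjusted p = 0.012 from limma) and changed by 0.13 relative to the median of the targets. G6pc2, a glucose-6-phosphatase of pancreatic islets, was the called gene nearest to the threshold, with 1.99 (adjusted p = 0.033 from limma). Its groups overlapped, its change was -0.004 relative to the median of the targets, and the call was lost without any one of p16+/+ CS lungs 1, 3 and 4 and p16-/- CS lungs 2 and 4. Gpd1, which makes glycerol phosphate, had a change of 2.25 and did not pass the test (adjusted p = 0.090 from limma), but was called without p16+/+ CS lung 2 (3.11) or p16-/- CS lung 3 (2.81).

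Lipid and adipocyte genes numbered 9, of which 4 were higher (44.4%, against 36.9% of all targets) and 0 lower. Their median change was 1.41 (-0.59 relative to the median of the targets and -1.68 with Gapdh alone). Cfd, the protease adipsin that fat cells secrete, was at -6.94, -7.08, -5.83 and -7.43 in p16+/+ CS and at -3.73, -2.99, -3.36 and -1.62 in p16-/- CS lungs. The groups were 2.11 cycles apart at their nearest. Cfd rose by 3.89 (SE 0.78, adjusted p = 0.0017 from limma), or 14.9-fold, but lost the call with CTs limited to 30 cycles (1.66). Acaca, the acetyl-CoA carboxylase that commits carbon to fatty acid synthesis, was at -5.50, -4.18, -5.75 and -4.98 in p16+/+ CS and at -3.46, -1.76, -2.20 and 1.46 in p16-/- CS lungs. The p16-/- CS lungs were all higher but spread widely, with an SD of 2.10 against 0.69. Acaca rose by 3.62 (SE 0.86, adjusted p = 0.0036 from limma), and by 2.63 without p16-/- CS lung 4. Aebp1, a secreted matrix protein first studied in fat cell precursors, rose by 3.18 (adjusted p = 0.0086 from limma) but was not called relative to the median of the targets.

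A lobe can carry fat at its hilum, and 6 targets are adipocyte markers (Cfd, Lep, Retn, Ucp1, Pparg and Cebpa). Of these 2 were higher (33.3%, against 36.9% of all targets) and 0 lower, and the median change was -0.61. Of the 6, 3 lay in columns 1 to 8 of the plate, which held 30 of the 31 higher genes. With the mean of each plate column removed in each lung, the median change of the 6 markers was 1.44, so its sign rests on plate position. Their summed level (2 to the power of -ΔCT) was 1.93, 1.42, 3.17 and 0.502 in p16+/+ CS lungs 1 to 4. In p16-/- CS lungs 1 to 4 it was 0.379, 0.548, 0.521 and 3.01. The groups thus overlapped, but through p16+/+ CS lung 4 and p16-/- CS lung 4. On this linear scale the most abundant markers carry the sum. Mean -ΔCT in p16+/+ CS was -0.42 for Retn and -0.96 for Cebpa, against -6.82 for Cfd and -6.48 for Pparg. The sum therefore cannot follow Cfd or Pparg. Mean CTs of the 6 lay between 25.8 (Retn) and 32.2 cycles (Cfd) in p16+/+ CS lungs, and the part of fat in the rise of Cfd and Pparg was not tested.

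Of the 8 hormone, vascular and other genes, 4 were higher (50.0%, against 36.9% of all targets) and 0 lower. As a list they had a median change of 1.67 (-0.32 relative to the median of the targets and -1.42 with Gapdh alone). Npy, which encodes neuropeptide Y, was at -8.70, -6.73, -7.70 and -7.87 in p16+/+ CS and at -3.94, -3.45, -5.21 and -2.04 in p16-/- CS lungs. Its groups were 1.52 cycles apart. Npy rose by 4.09 (SE 0.72, adjusted p = 0.00075 from limma), or 17.0-fold, but its mean CT in p16+/+ CS was 33.3 cycles, and with CTs limited to 30 cycles the call was lost (0.93). Prl, the pituitary hormone prolactin, rose by 2.94 (adjusted p = 0.0036 from limma) and Nos2, the inducible nitric oxide synthase, by 2.77 (adjusted p = 0.0046 from limma). Neither held relative to the median of the targets. In p16-/- CS lungs the mean CTs of Prl, Ins1 and G6pc2 were 26.4, 25.8 and 26.3 cycles, near the 26.0 of the reference gene Actb. Whether these products came from the named transcripts was not tested. Vegfa, the endothelial growth factor, was, with Prkcz and Rras, 1 of the 3 genes with all p16-/- CS lungs below the p16+/+ CS lungs, at -2.44, -3.0, -2.21 and -3.20 in p16+/+ CS and at -7.92, -5.02, -4.10 and -4.97 in p16-/- CS lungs. p16-/- CS lung 1 was far below the rest. The Vegfa change of -2.79 (SE 1.43) was not called in the fit of all groups (adjusted p = 0.13 from limma), but was called when the CS lungs were fitted alone. Vegfa lay in column 12 of the plate. In p16-/- CS lung 1, columns 9 to 12 came up 3.87 cycles later than columns 1 to 8. With the mean of each plate column removed in each lung, the Vegfa change was -0.51 (adjusted p = 0.63 from limma).

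The same genotype difference was measured in RA with 3 lungs a group, to ask whether it differed under smoke. In RA 20 of 84 genes were higher (23.8%) and 4 lower (4.76%) in p16-/- lungs. All 20 were among the 31 that were higher in CS, both counts coming from a single fit with the same reference genes. The other 11 (Akt2, Cfd, Dok2, G6pc2, Grb10, Igfbp1, Irs1, Klf10, Pck2, Prl and Slc2a1) passed in CS and not in RA. The test of the difference itself, CS minus RA, called 0 genes by limma (0%), and 0 at an unadjusted p under 0.05, with a smallest adjusted p of 0.80. Its precision was low, with a median SE of 1.21. For Grb10 the difference was 1.69 (95% interval -1.08 to 4.46), for Cfd 2.10 (-0.45 to 4.65), for Klf10 1.84 (-0.48 to 4.16) and for Akt1 1.04 (-1.70 to 3.77). The CS change exceeded the RA change for 72 of 84 genes, with a median difference of 0.94 that fell to 0.31 without p16-/- CS lung 4. The RA changes carry plate position too. Columns 9 to 12 came up later than columns 1 to 8 by 0.15, 2.66 and 2.72 cycles in p16-/- RA lungs 1 to 3. In p16+/+ RA lungs 2 to 4 this lag was -1.56, -0.10 and 0.05 cycles. The 4 genes lower in RA were Hras (column 12), Retn (column 11), Tg (column 10) and Prkcz (column 6). With column means removed, CS minus RA still called 0 genes.

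**Figure D3:**
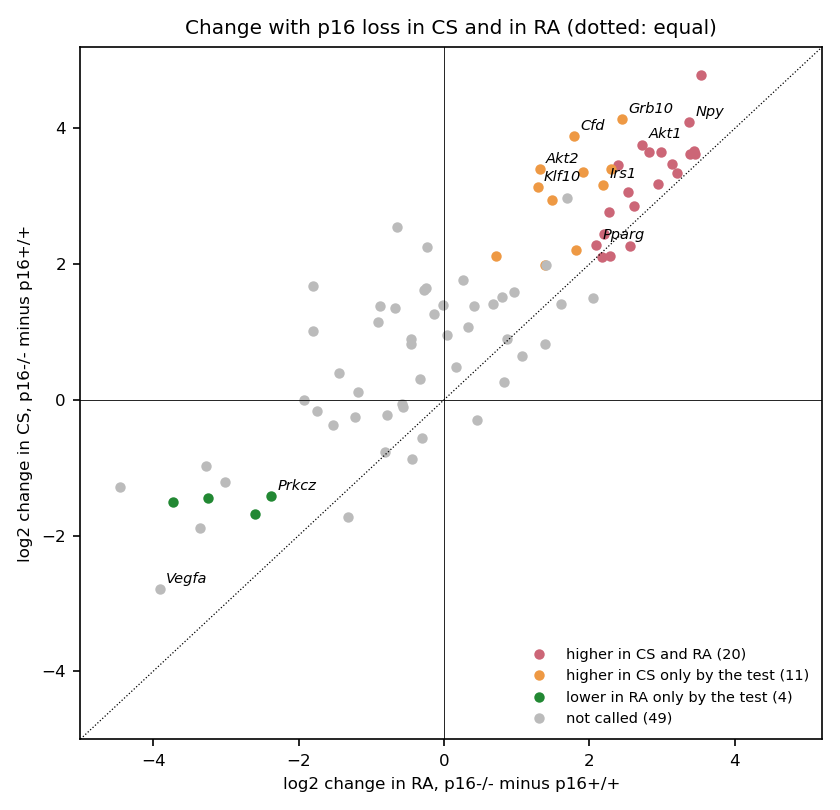
Each point is 1 of the 84 targets, placed by its log2 change between p16-/- and p16+/+ lungs in RA (horizontal axis) and in CS (vertical axis), with the colour giving which test it passed and the dotted line marking equal change. The 20 genes higher in both lie at the upper right, and the 11 called in CS and not in RA lie above the dotted line, though the difference between CS and RA passed the test for 0 genes.

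The lungs of the p16-/- CS group also varied more. The median SD over the 84 targets was 0.87 in p16+/+ CS and 1.31 in p16-/- CS lungs, and the SD was larger in p16-/- CS for 63 genes. Among the 31 higher genes it was larger for 24. These genes were read in the same lungs and are not separate observations. p16-/- CS lung 4 was the highest of its group in 72 targets. Its mean reference CT was 26.3, against 23.4 to 24.8 in lungs 1 to 3, but its median target CT of 26.8 lay within its group. In p16-/- CS lung 1, columns 9 to 12 of the plate came up 3.87 cycles later than columns 1 to 8.

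Because the reference genes set every level, they were compared in the same 8 lungs. Gapdh, a glycolytic enzyme, came up at 25.09, 23.40, 27.79 and 24.07 cycles in p16+/+ CS and at 21.01, 21.18, 19.75 and 23.53 in p16-/- CS lungs. The groups overlapped only at p16-/- CS lung 4, and the mean CT fell from 25.1 ± 1.93 to 21.4 ± 1.58 (SD, n = 4; exact permutation p = 0.0571). Relative to the mean of the 5, Gapdh was 3.09 cycles earlier in p16-/- CS and Hsp90ab1, a chaperone, 1.58 cycles later, each with an exact permutation p of 0.0286 (0.143 adjusted over the 10 tests of reference genes). That mean includes Gapdh, and on raw CT Hsp90ab1 was 0.95 cycles later with overlapping groups (exact permutation p = 0.286). For Actb, B2m and Gusb the differences were -0.17, 0.89 and 0.79 cycles, with overlapping groups. With Gapdh left out of the reference, 47 targets were higher and 0 lower, and the median change was 2.23. With Gapdh alone the median was -1.63, and 12 of the 31 called genes had a negative change. The cause of the Gapdh difference was not tested.

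**Figure D4:**
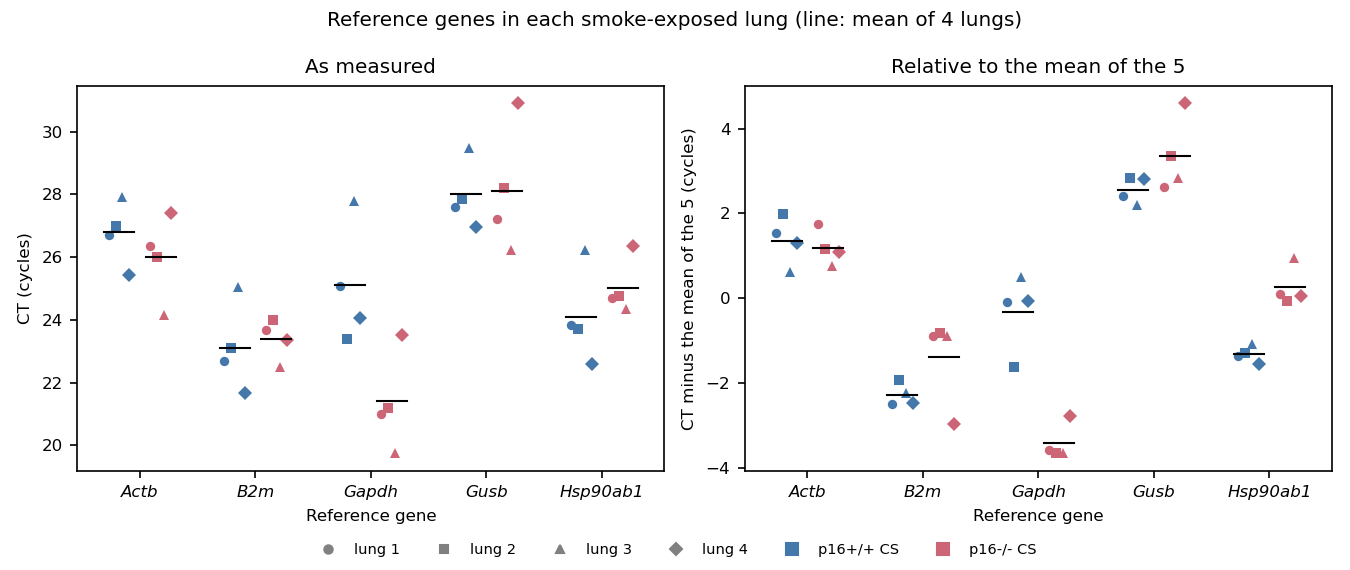
CTs of the 5 reference genes are drawn for each p16+/+ CS (blue) and p16-/- CS lung (red), as measured in cycles (left) and relative to the mean of the 5 in the same lung (right), with a symbol for each lung and a line at the mean of 4 lungs. On the right, Gapdh and Hsp90ab1 are the genes whose groups do not overlap, in opposite directions, whereas on the left the groups overlap for every gene.

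The changes also followed the position of the target on the plate. Of the 31 higher genes, 30 lay in columns 1 to 8, which hold 56 targets with a median change of 2.17, and 1 (Klf10) in columns 9 to 12, which hold 28 targets with a median change of -0.03. Columns 9 to 12 came up later than columns 1 to 8 by 1.40 ± 1.75 cycles in p16-/- CS lungs and earlier by 0.46 ± 0.10 in p16+/+ CS lungs (SD, n = 4), a difference of 1.86 cycles (exact permutation p = 0.0286). By lung, columns 9 to 12 were later by 3.87, 1.39 and 0.35 cycles in p16-/- CS lungs 1 to 3 and by 0 in lung 4, and without lung 1 the difference was 1.03 cycles. This split of the plate was chosen with the data in view. With the mean of each column removed in each lung, 34 genes were higher and 1 lower (Prkcz). This step gives every column of a lung the same mean, so the near-equal medians of the 2 blocks (1.61 and 1.60) were fixed by it. Nor are the 34 simply the 31 genes kept. Lep (-0.25 before, 2.03 after) and Pik3r2 (-0.06 before, 2.22 after), both in column 12, were called higher only after the step. Grb10, Cfd, Akt1 and Prkci then rose by 3.31, 3.07, 2.99 and 2.90, whereas G6pc2, Igfbp1, Slc2a1 and Mtor were no longer called. The lists lay unevenly on the plate. Columns 1 to 8 held 7 of 7 ligand, receptor and substrate genes and 10 of 11 docking and adaptor genes. They held 6 of 13 genes of the PI3K, Akt and mTOR branch and 5 of 10 of the Ras, Raf and MAP kinase branch. The medians of these lists went from 1.41, 1.59, 1.68 and 1.17 to 0.71, 0.62, 2.22 and 1.73 with column means removed. The order of the lists thus also rests on plate position. What lay behind the shift by column was not tested.

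**Figure D5:**
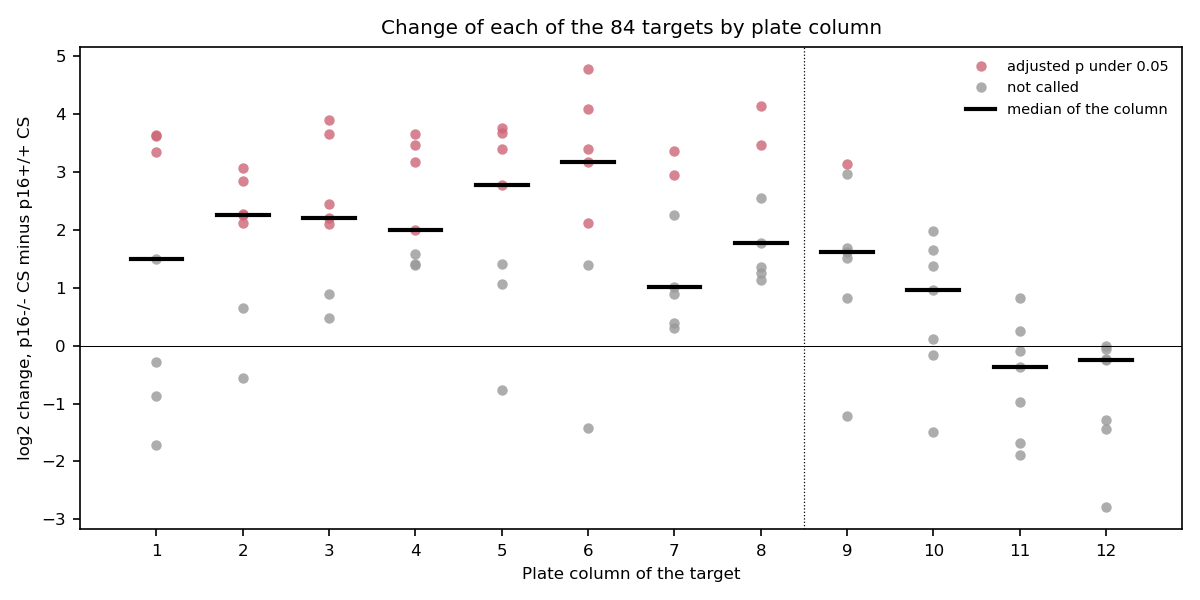
Each point is the log2 change of 1 of the 84 targets from p16+/+ CS to p16-/- CS lungs (vertical axis) by its column on the plate (horizontal axis), red where called, with a bar at the median of each column and a dotted line between columns 8 and 9. The medians lie between 1.01 and 3.17 in columns 1 to 8 and at 1.62, 0.96, -0.37 and -0.25 in columns 9 to 12, so that column 9 lies above columns 1 and 7.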

How the data were processed

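The authors extracted RNA from whole lung lobes with a Zymo kit and DNase I, and ran a QIAGEN RT2 Profiler array with SYBR Green. The deposited CTs are log2 values without normalization, 1 column per lung. Their baseline and threshold are not given in the sources used here. A second deposited table holds the authors' own fold changes and p-values against p16+/+ RA and was not used. Each sample record covers a whole group, and the 4 columns equal to group means were not counted as lungs, where the study gives more lungs per group. No source used here names plates or run dates. Run batches were therefore not checked, and p-values measure the spread between these columns.

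Blank CTs or CTs over 35 were set to 35. -ΔCT was fitted with limma 3.58.1 in R 4.3.3, all 4 groups in 1 fit with 10 residual degrees of freedom, Benjamini-Hochberg adjustment over 84 targets and a threshold of 0.05. Two-sided exact permutation tests, the tables and the plots used scipy 1.17.1, pandas 2.3.3, numpy 2.4.6 and matplotlib 3.10.9 in Python 3.11.15. The fit was tested on simulated data. All 89 symbols were found in a RefSeq table, used for names alone. The number of lungs limits the precision.

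Genes named are Akt1 and Pparg, up to 12 per direction with the largest called change and no overlap, the 2 to 4 largest changes of each list, Irs1, Irs2, Igf1r, Igf2, the reference genes, genes called in CS and not RA, and those beside the threshold. 5 genes that this rule names are not reported here, but stayed in every fit and count. The genes, lists and tests were chosen with earlier results of these data known. Leaving out both lungs that stood apart, the t-test on the linear scale, and the plate difference with 1 lung left out were chosen after seeing the data.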

Additional observations from a re-analysis of the deposited data

Results flagged for a closer look

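In 4 of 86 groups of 4 lungs, 1 lung lay far from the other lungs of its group, where chance gives about 5%. All 4 cases were p16+/+ CS lung 2, and they share that lung's RNA and reference genes. Its level (-ΔCT) of Irs1 was -3.31, against -4.99 to -4.82 in the other p16+/+ CS lungs. For Dok2 it was -3.98 (others -6.08 to -5.85), for Klf10 -3.82 (others -5.28 to -5.07) and for Pck2 -2.66 (others -4.40 to -4.23). In each gene this lung was the p16+/+ CS lung nearest to the p16-/- CS lungs.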

How the results depend on the processing

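The count of higher genes (31 by limma) was 0 with Gapdh alone, 47 with Gapdh left out, 16 relative to the median of the targets and 20 with CTs limited to 30 cycles. With Actb, B2m, Gusb or Hsp90ab1 left out of the reference, the count was 32, 27, 31 and 26. It was 0 by the exact permutation test after adjustment, and on the linear scale the t-test gave 13 unadjusted and 0 adjusted. Leaving out 1 lung at a time gave 28 to 39 higher genes.

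The count of lower genes (0) was 19 with Gapdh alone and 16 relative to the median of the targets. It was 2 (Prkcz and Retn) with Hsp90ab1 left out of the reference. It was 1, Prkcz, with Actb, B2m or Gusb left out, with plate column means removed, with p16+/+ RA lung 1 kept on its 3 measured reference genes or with both lungs that stood apart left out. It was 1, Vegfa, with CTs limited to 30 cycles or with the CS lungs fitted alone. The methods' t-test gave 2 unadjusted and 1 adjusted, the t-test on the linear scale 3 unadjusted, and the exact permutation test 3 unadjusted. Leaving out 1 lung at a time gave 0 to 4 lower genes, the most (Prkcz, Retn, Cebpa and Fbp1) without p16-/- CS lung 4.

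With Gapdh alone 12 of the 31 called genes turned negative. Those reported here include Pparg (-0.81), Igf2 (-0.83), Igfbp1 (-0.88), Cebpb (-0.03), Prl (-0.15), Nos2 (-0.32), G6pc2 (-1.10) and Slc2a1 (-0.97). G6pc2 was also at -0.004 relative to the median of the targets. No paired analysis was possible because the labels give no pairing of lungs and the column numbers only name them. What lies behind these differences was not tested. 24 of the 31 higher genes were past 30 cycles in p16+/+ CS lungs.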
